A study of Mus musculus with 4 samples.

Results

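Pattern recognition receptors and their adaptors were followed as 10 genes chosen by name from the deposited count table of 25413 genes: the Toll-like receptors Tlr2, Tlr3 and Tlr4, the co-receptor Cd14, the adaptor Myd88, the cytosolic receptors Nod1 and Nod2, their kinase Ripk2, and the inflammasome genes Nlrp3 and Pycard. Each of the 10 names had 1 row in the table. They were measured by polyA RNA sequencing in EpH4, an immortalised line of mouse mammary epithelial origin with the genotype WT, grown as a flat (2D) culture. Untreated control cells gave 2 libraries and cells treated with PM2.5, fine airborne particulate matter, gave the other 2. The dose and the exposure time are not given in the labels, all 4 libraries carry 1 batch value, and nothing states that replicates were separate cultures, so the p-values reflect only the variation among these 4 libraries, which could be technical. EpH4 is 1 cell line, so the comparison has no replication across lines or animals.

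Pattern recognition receptors are proteins that detect conserved molecules of microbes or signs of tissue damage. TLR2 and TLR4 sit at the cell surface, where TLR2 senses bacterial lipoproteins and TLR4, with CD14 and MD-2, senses lipopolysaccharide; TLR3 senses double-stranded RNA in endosomes and signals without MyD88. NOD1 and NOD2 detect fragments of bacterial peptidoglycan in the cytosol and signal through the kinase RIPK2. NLRP3 and ASC, the product of Pycard, assemble the inflammasome that activates caspase-1. Epithelial cells carry part of this set and use it to start cytokine and chemokine production through NF-kB.

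In PM2.5 libraries Tlr2, Tlr3 and Myd88 transcripts were higher than in controls and Tlr4 was lower. Cd14, Nod1, Nod2, Ripk2 and Pycard did not pass the test, and Nlrp3 was too low to be tested. So 3 of the 9 tested genes were called higher and 1 lower, a share of 44.4%, against 39.6% of all 12478 genes tested (19.2% higher and 20.4% lower). The share was near that background, and the description below rests on the single genes. Calls are edgeR quasi-likelihood tests with Benjamini-Hochberg adjustment over all genes tested and a threshold of 0.05. Levels are CPM, counts scaled to a common library size with TMM factors, except where genes are compared with one another. Those comparisons use the authors' RPKM, which divides by gene length.

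Total counts ran from 18548478 to 26206329 per library, and a count of 3, used as the detection floor, was worth 0.116 to 0.158 CPM. Such floors and the counting intervals below cover counting error only. Against the label, 15 of 16 epithelial markers averaged below 1 CPM and 6 of them (Cldn4, Epcam, Esrp1, Krt18, Krt19 and Krt5) had 0 counts in every library, which allows up to 0.158 CPM in the shallowest. The exception was the basal keratin Krt14, which fell from 52 ± 1.43 to 19.7 ± 1.51 CPM (SD, n = 2 each; edgeR adjusted p = 1.116e-06). The other epithelial marker tested, Grhl2, was called higher (edgeR adjusted p = 0.0149) on 2 and 6 counts in controls and 12 and 19 in PM2.5, having passed the filter on low counts through PM2.5 alone, and passed in 11 of 16 alternatives, not with DESeq2, either limma-trend fit, or Control replicate 1 or PM2.5 replicate 2 omitted. Of 14 mesenchymal markers 11 were tested, with 3 higher and 6 lower, and 3 averaged below 1 CPM (Fap, at 0 counts, Lum and Thy1). The most abundant were Vim and Col1a2, which fell from 2196 ± 44 to 1469 ± 29.4 and from 2128 ± 115 to 1824 ± 18.8 CPM (edgeR adjusted p = 3.559e-05 and 0.0143), while Dcn rose from 63.8 ± 28 to 251 ± 42 CPM, as did Col3a1 and Col1a1 from lower levels. Mesenchymal markers other than Vim and Col1a2 were picked with their values in view. The cells are therefore called EpH4 cells here, without a cell type.

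For the 3 genes called higher, the 250 bases before the transcription start are shown because they rose together. The sequences are those of RefSeq on GRCm38.p6, whereas gene positions from the count table are on GRCm39. Capitals mark matches, on either strand, to the NF-kB motif (given by its name only) or to the interferon response motif, a pair of GAAA runs parted by any 2 bases. Bases are numbered backwards from the start, the base before it being -1. Tlr2 lies on the minus strand (chr3:83841609-83841858), Tlr3 on the minus strand (chr8:45410381-45410630) and Myd88 on the minus strand (chr9:119340019-119340268).
Tlr2: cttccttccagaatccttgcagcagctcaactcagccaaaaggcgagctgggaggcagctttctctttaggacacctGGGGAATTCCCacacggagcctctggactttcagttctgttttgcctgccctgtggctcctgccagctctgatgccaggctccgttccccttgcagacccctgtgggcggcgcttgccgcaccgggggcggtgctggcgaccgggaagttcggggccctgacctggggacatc
Tlr3: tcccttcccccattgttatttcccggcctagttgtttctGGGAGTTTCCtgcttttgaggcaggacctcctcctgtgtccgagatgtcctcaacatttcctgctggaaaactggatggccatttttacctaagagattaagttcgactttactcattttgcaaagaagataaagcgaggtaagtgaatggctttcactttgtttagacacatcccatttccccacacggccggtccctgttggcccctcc
Myd88: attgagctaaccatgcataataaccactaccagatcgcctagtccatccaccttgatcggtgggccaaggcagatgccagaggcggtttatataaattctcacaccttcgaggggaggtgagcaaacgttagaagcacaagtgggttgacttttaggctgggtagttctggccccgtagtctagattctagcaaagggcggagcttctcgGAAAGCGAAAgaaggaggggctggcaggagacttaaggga

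Tlr2 held 2 overlapping matches to the NF-kB motif, the first starting at base -173 and the second at base -172, and Tlr3 held 1 starting at base -211. Myd88 held no NF-kB match and 1 interferon response match starting at base -40, which overlapped by 3 bases a match to the STAT motif TTCNNNGAA that starts at base -46. RefSeq promoters were matched by symbol for 7 of the 10 genes (Tlr2, Tlr3, Myd88, Nod1, Nod2, Nlrp3 and Pycard). Entries on chromosome 18, where Cd14 lies, were not used for the 10 genes. Beyond those shown, an NF-kB match stood in 1 of the Nlrp3 promoters, from base -186, and a STAT match in 1 of the Nod1 promoters, from base -193. The AHR core motif GCGTG was found in 1 Nod1 promoter and the AP-1 motif TGANTCA in none of the promoters of the 7 genes. Among all 32851 promoters cut to the same 250 bases, 7.25% held the NF-kB motif, 2.98% the interferon response motif, 7.02% the STAT motif, 6.75% the AP-1 motif and 28.2% the AHR core. A match is a run of letters and not a measured binding site.

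**Figure D1:**
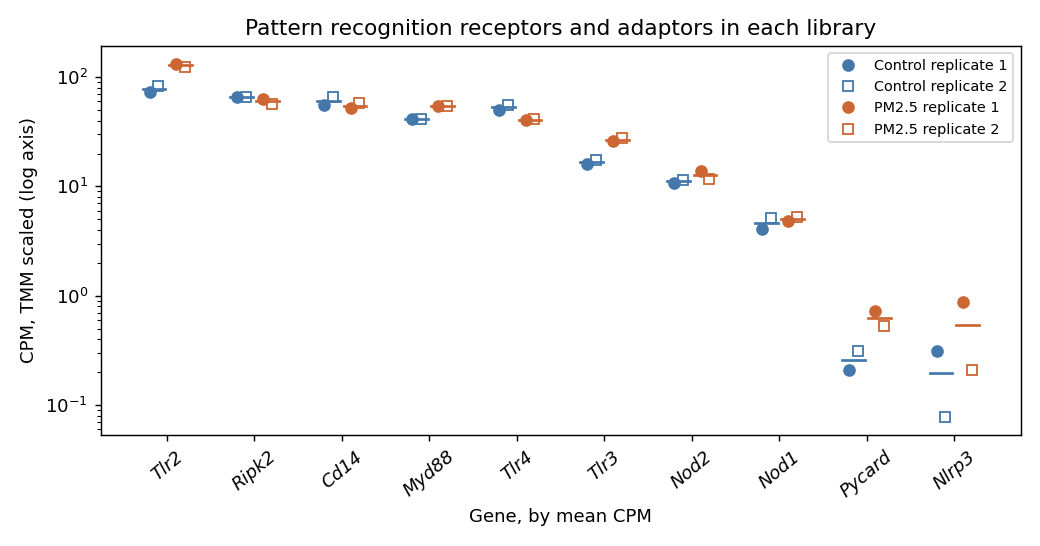
TMM-scaled CPM on a log axis for each of the 10 genes, ordered by mean CPM, with 1 point per library (blue control, orange PM2.5; filled replicate 1, open replicate 2) and a short line at each group mean. For Tlr2 the PM2.5 libraries sit at 133 and 123 CPM, above controls at 73.7 and 82.5, while Pycard and Nlrp3 lie below 1 CPM in every library.

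On the length-corrected scale, Cd14 was the most abundant of the 10 in controls, at 30.7 ± 3.42 RPKM (SD, n = 2). Tlr2 followed at 21.6 ± 1.76 RPKM, Ripk2 at 19.4 ± 0.164 and Myd88 at 17.1 ± 0.111. No library of one of these 4 genes overlapped in RPKM with a library of the next. Tlr4 was at 8.05 ± 0.598, Tlr3 at 2.85 ± 0.168, Nod2 at 1.92 ± 0.0928 and Nod1 at 0.822 ± 0.138 RPKM, again without overlap between neighbours in that order. Pycard and Nlrp3 were last, at 0.057 ± 0.0156 and 0.0403 ± 0.0344 RPKM, and their libraries overlapped. With the total counts as divisor, the RPKM of Cd14 would imply a length of 1920 to 1985 bases, longer than its whole span in the genome. Lengths found this way therefore run too long. For Pycard they would be 4447 to 4596 bases, which does not settle the length used for Pycard. Its RPKM would be higher for a shorter transcript. In PM2.5 Tlr2 took the first place at 35.9 ± 1.86 RPKM, ahead of Cd14 at 28.3 ± 2.03, and Myd88 passed Ripk2, at 22.7 ± 0.153 against 18.1 ± 1.35; the order of the other 6 was the same. Averaged over the 4 libraries, Cd14 and Tlr2 stood at the 89.4th and 89.1st percentile of the 17974 genes with a count, Tlr3 at the 52.4th and Nlrp3 at the 26th.

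Tlr2 (ENSMUSG00000027995, chromosome 3, 83743579 to 83749074, minus strand, GRCm39) had 1402 and 2129 counts in the controls and 2742 and 2334 in PM2.5. Those are 73.7 and 82.5 CPM against 133 and 123 CPM, so both PM2.5 libraries lay above both controls and the gap between groups was wider than the spread within either. The log2 fold change was 0.71 (SE 0.072, adjusted p = 4.681e-05 by edgeR), or 1.64-fold. In bulk RNA, more transcript per cell and more cells holding it cannot be told apart. Across all 17 alternative settings the log2 fold change of Tlr2 stayed between 0.62 and 0.79 and past the threshold.

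Tlr3 (ENSMUSG00000031639, chromosome 8, 45848702 to 45864117, minus strand) was a lower-abundance receptor with a rise of similar size. It had 16.1 and 17.4 CPM in controls and 25.9 and 27.6 CPM in PM2.5, without overlap. Its log2 fold change was 0.67 (SE 0.093, adjusted p = 3.304e-04 by edgeR), a 1.59-fold rise, and it ran from 0.55 to 0.73 over the 17 alternatives, all past the threshold. The ratio of Tlr2 to Tlr3 in RPKM was 7.44 and 7.69 in controls and 8.33 and 7.25 in PM2.5, so their proportion overlapped between the groups.

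Myd88 (ENSMUSG00000032508, chromosome 9, 119165000 to 119170477, minus strand), the adaptor shared by TLR2, TLR4 and the interleukin 1 receptors, changed less and its replicates lay close together. Its levels were 41.4 and 41.7 CPM in controls and 54.9 and 54.1 CPM in PM2.5. The log2 fold change was 0.39 (SE 0.066, adjusted p = 0.00109 by edgeR), a rise of 31.2%, and every one of the 17 alternatives kept it past the threshold, between 0.33 and 0.45. On the opposite strand Acaa1a, a peroxisomal thiolase gene, overlaps Myd88 by 1736 bases. Whether counting used strand is not given in the sources used here, so reads from that stretch may not be separated. Acaa1a was at 42.1 and 44.5 CPM in controls and 46.5 and 49.3 CPM in PM2.5, which on the log2 scale is a difference of 0.14 (SE 0.071, adjusted p = 0.137 by edgeR).

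Tlr4 (ENSMUSG00000039005, chromosome 4, 66745821 to 66848521, plus strand) was the gene called lower. It had 50.1 and 55.6 CPM in controls and 40.3 and 41.1 CPM in PM2.5, so both PM2.5 libraries lay below both controls. The log2 fold change was -0.38 (SE 0.074, adjusted p = 0.0026 by edgeR), a 1.3-fold fall. The fall was shared with its stretch of chromosome 4. Of the 100 nearest tested genes, which span 53030787 to 100886417, 62 were called lower and 7 higher, their median log2 fold change was -0.40, and 52 of them had a lower value than Tlr4. With each gene set against the median of its neighbours, the log2 fold change of Tlr4 was 0.020 (SE 0.074, adjusted p = 0.856 by edgeR) and the call ended, as it did in none of the other 16 alternatives.

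A further deposited count, total gene reads, includes reads left out of the raw count, which the file headers do not define. For Tlr4 these made up 29.5% and 34.2% of total gene reads in controls and 38.5% and 38% in PM2.5. Over all genes the share was 9.82% and 10.5% in controls and 11.7% and 11.6% in PM2.5. Counted by total gene reads, Tlr4 differed by -0.27 on the log2 scale (SE 0.081, adjusted p = 0.0232 by edgeR). For Tlr2 the share was between 2.43% and 3.64%, and for Cd14 and Myd88 it was also below that over all genes. For Tlr3 it ran from 8.73% to 11.3%. Like Tlr4, Nod1 (25% to 29.09%), Nod2 (22.65% to 25.07%) and Ripk2 (17.15% to 19.33%) lay above it. Nlrp3 and Pycard had at most 27 total gene reads in any library.

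Tlr2 rose and Tlr4 fell, and their proportion within each library, a quantity that scaling of library sizes does not touch, was also compared. In RPKM, the ratio of Tlr2 to Tlr4 was 2.67 and 2.69 in controls and 5.98 and 5.42 in PM2.5. The ratio of Tlr3 to Tlr4 was 0.358 and 0.35 in controls and 0.718 and 0.748 in PM2.5. Neither ratio overlapped between the groups. For each the two-sided exact permutation p was 0.333, the smallest that 2 libraries against 2 can give, so no such ratio could pass a threshold of 0.05. In all 10 ratios between genes of the set were computed, and they were picked after the single genes had been seen.

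**Figure D2:**
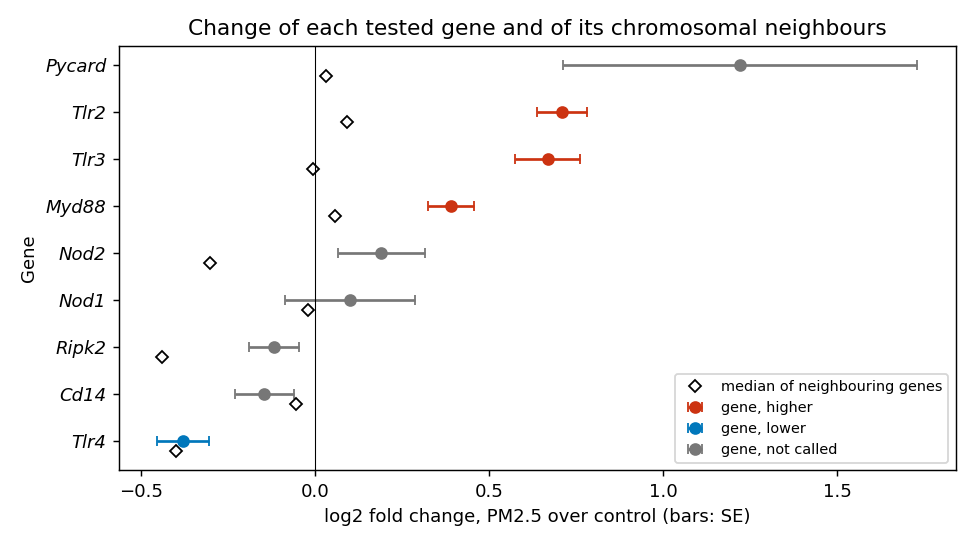
Log2 fold change of PM2.5 over control with its SE for the 9 tested genes (red called higher, blue called lower, grey not called), and the median log2 fold change of up to 100 neighbouring tested genes (open diamonds). Tlr4 lies near the median of its neighbours at -0.38 against -0.40, whereas Tlr2, Tlr3 and Myd88 lie above the medians of theirs. The neighbours with a lower value than the gene, not drawn, are 89 of 100 for Tlr2, 94 of 100 for Tlr3 and 73 of 91 for Myd88.

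Cd14 (ENSMUSG00000051439, chromosome 18, 36858120 to 36859851, minus strand), which hands lipopolysaccharide to TLR4 and also serves TLR2, had 55.9 and 65.3 CPM in controls and 52.3 and 57.6 CPM in PM2.5, with the groups overlapping. Its log2 fold change of -0.14 (SE 0.086, adjusted p = 0.208 by edgeR) had a 95% interval of -0.34 to 0.05. Without Control replicate 1 it was -0.25 and called (edgeR adjusted p = 0.0304), and without Control replicate 2 it was -0.03. Tlr2 over Cd14 in RPKM went from 0.718 and 0.688 in controls to 1.38 and 1.16 in PM2.5.

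Of the cytosolic peptidoglycan receptors, Nod2 (ENSMUSG00000055994, chromosome 8, 89373943 to 89415102, plus strand) had 10.8 and 11.5 CPM in controls and 13.8 and 11.7 CPM in PM2.5. PM2.5 replicate 2 exceeded the higher control only slightly, and the log2 fold change of 0.19 (SE 0.126, 95% interval -0.09 to 0.47) was not called (edgeR adjusted p = 0.256). Nod1 (ENSMUSG00000038058, chromosome 6, 54900934 to 54949597, minus strand) had 4.10 and 5.19 CPM in controls and 4.84 and 5.21 CPM in PM2.5. The groups overlapped, and its log2 fold change of 0.10 (SE 0.187, adjusted p = 0.7 by edgeR) had a 95% interval of -0.31 to 0.51, on 78 to 134 counts a library.

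Ripk2 (ENSMUSG00000041135, chromosome 4, 16122733 to 16163647, minus strand), the kinase both receptors use, had 65.2 and 65.8 CPM in controls and 63.7 and 57 CPM in PM2.5. Both PM2.5 libraries lay below both controls, PM2.5 replicate 1 narrowly. The log2 fold change was -0.12 (SE 0.072, adjusted p = 0.22 by edgeR), with a 95% interval of -0.28 to 0.04. In RPKM, Ripk2 exceeded Nod2 10.4 and 9.8 times in controls and 7.93 and 8.36 times in PM2.5.

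Nod2 and Ripk2, like Tlr4, lie among genes that were lower in PM2.5. Of the 100 neighbours of Nod2 60 were called lower and 5 higher, with a median log2 fold change of -0.30. Of the 89 neighbours of Ripk2, near the start of chromosome 4, 65 were called lower and 4 higher, with a median of -0.44. Set against these medians, Nod2 stood at 0.49 on the log2 scale (SE 0.126, adjusted p = 0.0136 by edgeR). Ripk2 stood at 0.32 (SE 0.072, adjusted p = 0.00688 by edgeR), so both passed as higher. The medians entered as fixed values, so these p-values leave out the spread of the neighbours. A lower value than the gene itself was held by 89 of 100 neighbours of Nod2 and 73 of 89 of Ripk2. With that positional correction 5 of the 9 tested genes were called higher and 0 lower, against 16.1% higher and 15.6% lower, together 31.7%, over all genes under the same correction. Tlr2, Tlr3 and Myd88 were among the 5, at 0.62, 0.67 and 0.33. At an unadjusted p under 0.05 none was lower in it either, since the only negative value was that of Cd14 (-0.09, edgeR adjusted p = 0.446).

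**Figure D3:**
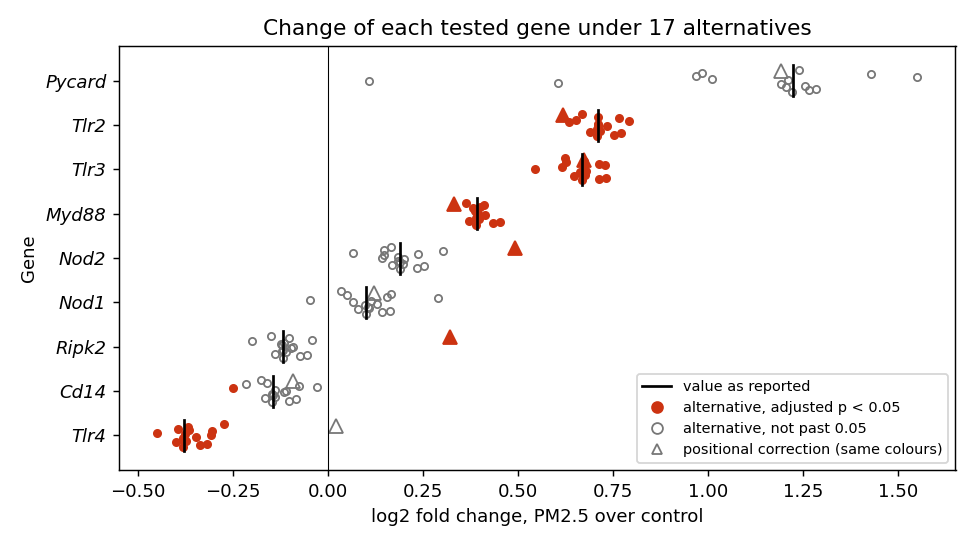
Log2 fold change of each tested gene under each alternative setting that could be fitted (17, and 16 for Pycard), filled red where the adjusted p was below 0.05 and open grey where it was not, with triangles for the positional correction and a black line for the value as reported. Tlr2, Tlr3 and Myd88 stay red throughout, while the triangles of Tlr4, Ripk2 and Nod2 stand apart from their other points.

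The inflammasome genes of the set were barely detected. Pycard (ENSMUSG00000030793, chromosome 7, 127588880 to 127593039, minus strand), which encodes the adaptor ASC, had 4 and 8 counts in controls and 15 and 10 in PM2.5, or 0.21 and 0.31 CPM against 0.727 and 0.527. It passed the filter on low counts through the PM2.5 libraries alone, and its log2 fold change of 1.22 (SE 0.509) was not called (edgeR adjusted p = 0.0802). The ratio of summed counts was 2.36, with a 95% counting interval of 1.14 to 5.15. The predicted gene Gm45205, named for its position and not for its value, overlaps Pycard by 599 bases on the other strand and had 5 and 6 counts in controls and 11 and 6 in PM2.5, so these few reads may not be separated either.

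Nlrp3 (ENSMUSG00000032691, chromosome 11, 59432394 to 59457782, plus strand), the sensor that oligomerises with ASC, had 6 and 2 counts in controls and 18 and 4 in PM2.5, and did not pass the filter. PM2.5 replicate 1 was high and PM2.5 replicate 2 lay within the control range. The summed ratio was 3.11 with a 95% counting interval of 1.33 to 8.08, which leaves out the spread between replicates. In the 4 libraries its level was 0.315, 0.0775, 0.872 and 0.211 CPM, against floors of 0.116 to 0.158 CPM.

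Of the 9 tested genes, 5 had both PM2.5 libraries above both controls (Tlr2, Tlr3, Myd88, Nod2 and Pycard) and 2 had both below (Tlr4 and Ripk2). Over all genes tested, 35.9% lay above in this sense and 35.1% below, together 71%. Pycard had passed the filter through the PM2.5 libraries, so it could hardly lie otherwise, and these counts only describe the set. The median log2 fold change of the 9, Pycard among them, was 0.19, against 0.01 over all genes tested. With the stricter filter, which drops Pycard, the median was 0.15. It too only describes the set.

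The counts of called genes in this list and those below stand beside 19.2% higher and 20.4% lower over all genes tested. They only describe the lists, and no list was tested as a set. Among the 9 other Toll-like receptors, 4 could be tested, and 1 was higher and 1 lower. Tlr6, a partner of TLR2 for diacylated lipoproteins, had 5.99 and 5.08 CPM in controls and 7.41 and 8.95 in PM2.5, which on the log2 scale is a difference of 0.57 (SE 0.165, adjusted p = 0.0194 by edgeR). Tlr1, its partner for triacylated lipoproteins, had 1.37 and 1.32 CPM in controls and 0.533 and 0.737 in PM2.5, which on the log2 scale is a difference of -1.08 (SE 0.363, adjusted p = 0.0371 by edgeR). The call on Tlr6 ended with DESeq2 and without Control replicate 2 or PM2.5 replicate 2, and that on Tlr1 with DESeq2 and with any 1 library left out. Without Control replicate 2 or PM2.5 replicate 2 neither was called. The other 2 tested were Tlr5 and Tlr7, chosen after their values were seen, with log2 fold changes of 0.12 and 0.33, and Tlr8, Tlr11 and Tlr13 had 0 counts in every library.

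Co-receptors, chaperones and sorting adaptors of the Toll-like receptors had 3 of 9 tested genes higher and 1 lower (19.2% and 20.4% over all genes tested). Lbp, which loads lipopolysaccharide onto CD14, rose most, from 1.42 and 2.44 CPM to 19.1 and 23.7 CPM, which on the log2 scale is a difference of 3.42 (SE 0.204, adjusted p = 1.625e-06 by edgeR). Unc93b1, the escort of the endosomal receptors, went from 0.315 and 0.194 CPM to 1.16 and 1.63 CPM, on 5 to 31 counts a library, and passed the filter through the PM2.5 libraries alone. Hsp90b1, an endoplasmic reticulum chaperone of Toll-like receptors, went from 836 ± 17.5 to 968 ± 32.7 CPM (edgeR adjusted p = 0.0127), which did not pass when PM2.5 replicate 1 or PM2.5 replicate 2 was omitted. The lower gene was Sarm1 (edgeR adjusted p = 0.046), chosen after its value was seen; it passed in only 6 of the 17 alternatives, and not with any 1 library omitted. Ly96, which encodes the TLR4 partner MD-2 and was likewise chosen after its values were seen, had 3.2 ± 0.957 CPM in controls and 3.2 ± 0.275 in PM2.5. Without PM2.5 replicate 1 the list had 2 higher and 0 lower.

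Downstream kinases, ligases and transcription factors had 7 of 29 tested genes higher and 4 lower (19.2% and 20.4% over all genes tested). Most changes were small. Map3k7, which encodes the kinase TAK1, fell from 197 ± 1.18 to 146 ± 1.07 CPM (log2 fold change -0.43, edgeR adjusted p = 1.775e-04). It lies on chromosome 4, where the positional correction left a value of 0.037 that did not pass. The ubiquitin ligase gene Birc2 rose from 32.8 ± 0.283 to 40.9 ± 0.526 CPM, and Tab2, a partner of TAK1, dropped from 172 ± 1.7 to 147 ± 5.73 CPM, although it did not pass when PM2.5 replicate 1 was omitted. The number higher was 2 with DESeq2, 10 (with 2 lower) with library size only, 4 with the positional correction, 3 without Control replicate 1, 3 without PM2.5 replicate 1 (with 1 lower) and 4 without PM2.5 replicate 2.

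Negative regulators had 9 of 22 tested genes higher and 3 lower (19.2% and 20.4% over all genes tested). Tnfaip3, which encodes the deubiquitinase A20, rose from 18.3 and 22.9 CPM to 81.2 and 78.2 CPM (log2 fold change 1.94, edgeR adjusted p = 3.651e-07). Tnip3, an A20-binding protein gene, rose from 1 ± 0.449 to 8.9 ± 0.438 CPM, and Nlrc3, an NLR protein gene, fell from 15.5 ± 0.571 to 6.42 ± 0.584 CPM. Only 1 passed as lower with DESeq2, upper quartile scaling, library size only or thinning to the smallest total. The same held when Control replicate 1, PM2.5 replicate 1 or PM2.5 replicate 2 was omitted.

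Muramyl peptide transporters and other NLR genes had 7 of 12 tested genes higher and 1 lower (19.2% and 20.4% over all genes tested). Their median log2 fold change was 0.51. Of the 7, 4 (Slc15a3, Ciita, Nlrp1a and Nlrp10, the last 3 picked with their values in view) passed the filter on low counts through the PM2.5 libraries alone, so they had to differ, and the count and the median only describe the list. A stricter filter left 5 of 8 higher with a median of 0.28, and no filter gave 5 of 17 and 0.32. Slc15a3 was among the 5 of 8, since its PM2.5 libraries alone also met the stricter filter. That count is therefore not free of the same selection. Slc46a3, a lysosomal transporter gene, rose from 5.23 ± 0.334 to 11.7 ± 1.15 CPM, and Naip5, a sensor of bacterial flagellin, from 9.26 ± 0.388 to 14.8 ± 0.769 CPM. Slc15a3, a peptide transporter gene, was at 0.32 ± 0.0683 and 1.27 ± 0.361 CPM, and it did not pass when PM2.5 replicate 2 was omitted. The number higher was 3 with DESeq2, with limma-trend on log2(RPKM + 0.1), and without Control replicate 1, PM2.5 replicate 1 or PM2.5 replicate 2. Of the 20 genes of this list 13 averaged below 1 CPM.

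Inflammasome partners and effectors had 6 of 14 tested genes higher and 1 lower (19.2% and 20.4% over all genes tested). Txnip, whose product can bind NLRP3, rose from 43.8 and 57.6 CPM to 107 and 113 CPM (log2 fold change 1.11, edgeR adjusted p = 2.866e-05). Pstpip1, a pyrin-binding protein gene, rose from 10 ± 1.16 to 14.8 ± 0.804 CPM and the protease gene Dpp9 fell from 152 ± 8.49 to 118 ± 2.48 CPM. Casp1, chosen after its values were seen, had 59.5 ± 3.95 CPM in controls and 56.5 ± 2.91 in PM2.5 (edgeR adjusted p = 0.444). Il1b, also named after its values were seen, had 0 counts in every library. The number higher was 2 with DESeq2 and 3 with the positional correction, or when Control replicate 1, PM2.5 replicate 1 or PM2.5 replicate 2 was omitted.

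Cytosolic nucleic acid sensors had 4 of 16 tested genes higher and 4 lower (19.2% and 20.4% over all genes tested). Tkfc, a kinase gene whose product binds MDA5, rose from 19.7 ± 0.337 to 31.4 ± 0.179 CPM and Zbp1, a sensor of Z-form nucleic acid, from 4.25 ± 1.18 to 8.24 ± 0.487 CPM, while the stress granule gene G3bp1 fell from 542 ± 23 to 410 ± 10.1 CPM. Fewer passed as lower with DESeq2 (2) and when PM2.5 replicate 1 (2) or PM2.5 replicate 2 (1) was omitted, and with the positional correction 6 were higher and 2 lower. In the C-type lectin pathway 5 of 16 genes were tested, with 0 higher and 1 lower, Syk (log2 fold change -0.34, edgeR adjusted p = 0.026), a kinase gene that passed in 11 of the 17 alternatives, and not with DESeq2, library size only, either limma-trend fit, or Control replicate 1 or PM2.5 replicate 2 omitted. At an unadjusted p under 0.05 too, none of the 5 was higher in edgeR, and with DESeq2 the count was also 0, while without a filter 1 of 14 passed as higher.

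Soluble pattern recognition proteins had 4 of 19 genes tested, of which 1 was higher and 1 lower. Ptx3, a long pentraxin, rose from 17 and 12.2 CPM to 86.9 and 71.9 CPM (log2 fold change 2.46, edgeR adjusted p = 8.285e-07), and Colec12, a scavenger collectin, fell from 129 and 136 CPM to 51.1 and 48.7 CPM (log2 fold change -1.41, edgeR adjusted p = 2.55e-07). With Control replicate 1 omitted, 2 passed as lower. Early target genes of Toll-like receptor signalling had 11 of 19 tested genes higher and 1 lower (19.2% and 20.4% over all genes tested). Their median log2 fold change was 0.31, and 1 of the 11 had passed the filter through PM2.5 alone (Icam1, picked with its values in view). Tnfaip3 and Nfkbia, both called higher, are also among the negative regulators, so the counts of these lists are not separate. Nfkbia is named for being on both lists. Saa3, Tnfaip3 and Csf3 had the smallest p-values, with Saa3, an acute-phase protein gene, at 85.2 ± 24.6 and 728 ± 29.4 CPM and Csf3, a granulocyte growth factor gene, at 0.592 ± 0.0943 and 8.54 ± 0.219 CPM. The lower gene was Nfkbiz (edgeR adjusted p = 0.00777), which did not pass with the positional correction or with PM2.5 replicate 1 omitted, and Il6, Cxcl1 and Ccl2 were not called, at log2 fold changes of -0.09, 0.07 and -0.02; these 4 were chosen after their values were seen. Without PM2.5 replicate 1 this list had 8 higher and 2 lower.

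**Figure D4:**
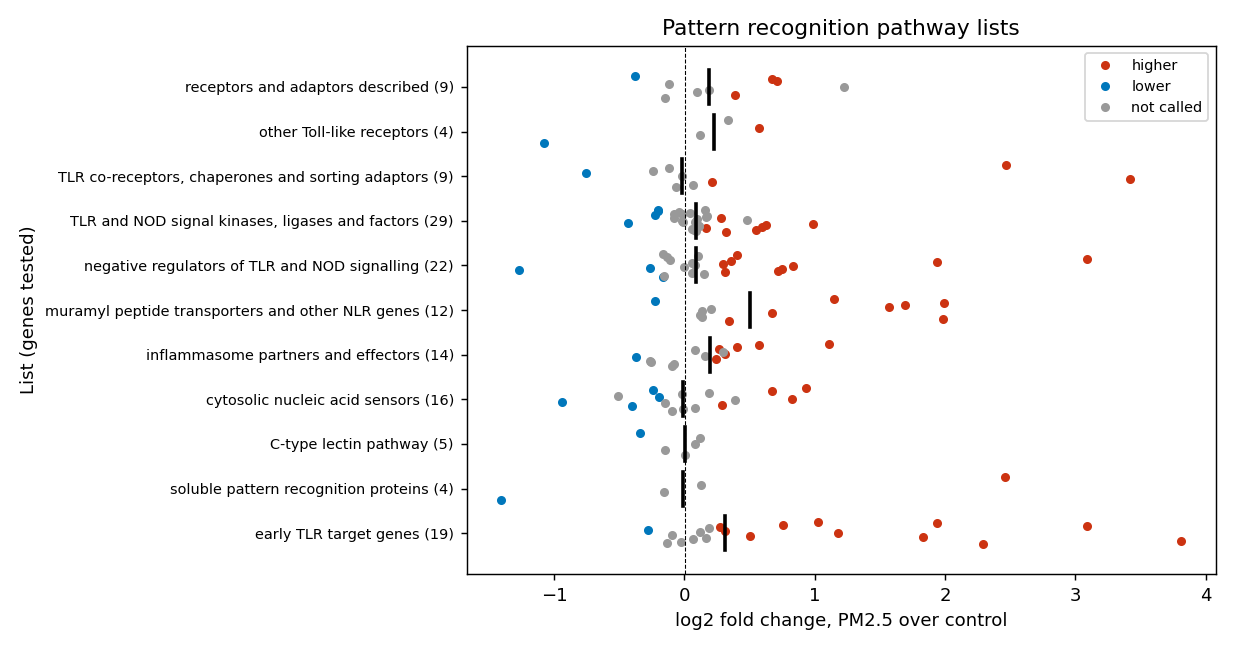
Log2 fold change of PM2.5 over control for every tested gene of the 9 genes described and of 10 lists of the surrounding pathways (red called higher, blue called lower, grey not called), with a black bar at each median and a dashed line at the median of all genes tested, 0.01. The medians of the target gene list and of the transporters and other NLR genes are 0.31 and 0.51, in an order that turns with the stricter filter (0.30 and 0.28), and the negative regulators reach from -1.27 to 3.09.

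Several of these receptors are typical of immune cells, so markers of such cells were read in the same libraries. Of 15 macrophage markers 13 averaged below 1 CPM, and Itgam, Tyrobp, C1qa and C1qc had 0 counts in every library. Ptprc, the pan-leukocyte marker, had 1 to 3 counts a library. The summed level of the list was 9.3 and 10.3 CPM in controls and 16.4 and 18.9 CPM in PM2.5, most of it from Lyz2 and from Cd68, which rose from 3.93 ± 0.423 to 9.67 ± 0.928 CPM (edgeR adjusted p = 1.788e-04). Neutrophil markers summed to 1.1 and 1.55 CPM in controls and 6.73 and 5.79 CPM in PM2.5, most of it from Camp and S100a8, which rose. Of the 10 neutrophil markers 8 averaged below 1 CPM, among them Ly6g, Mpo, Csf3r and Retnlg at 0 counts. T and B cell markers summed to 0.999 and 0.93 CPM in controls and 3.29 and 2.95 CPM in PM2.5, with 10 of 11 below 1 CPM. There Cd3d, Cd3e, Cd2, Cd8a and Ms4a1 were at 0 counts, and Cd3g rose. Cd3g and S100a8 passed the filter through the PM2.5 libraries alone. Ptprc and the markers named at 0 in these 3 lists were picked with their values in view. The sums of these marker lists were higher in PM2.5, as were Tlr2, Tlr3 and Myd88, and their part in those results was not tested.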

How the data were processed

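The authors deposited raw counts per gene for 4 libraries made from 750 ng of total RNA with a stranded polyA kit, per the labels' protocols. They also deposited RPKM values and, per library, total gene reads, which were never below the raw count. The build is GRCm39, per the submitters' processing notes; the sources used here do not give the aligner, the counter or the use of strand.

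From the counts, genes were kept by filterByExpr (12478), scaled by TMM and tested with edgeR 4.0.16 in R 4.3.3 (quasi-likelihood F test, unpaired, Benjamini-Hochberg over all genes tested). Each SE was derived from the log2 fold change and its F statistic. Intervals of 95% use the fit's degrees of freedom. The procedure was also run on simulated counts, and the outcome is not given here. The 17 alternatives were other scalings, filters and tests (DESeq2 1.42.0, limma 3.58.1), a replicate block, each library left out, thinning, total gene reads, and a positional correction that enters the median of 50 neighbours on each side as an offset.

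The 10 genes, the lists and the alternatives were chosen with earlier results of these data known. From each pathway list up to 3 called genes with the smallest p-values were named, from each marker list up to 2 of the most abundant genes, and for the labelled cell type those at 0; other names are marked.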

Additional observations from a re-analysis of the deposited data

How the results depend on the processing

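Over the 17 alternatives the number of the 9 tested receptor and adaptor genes called higher was 3 in 16 and 5 with the positional correction. For genes called lower the number was 1 in 15, 0 under that correction, and 1 to 2 when 1 library was left out, the second being Cd14 without Control replicate 1. That correction took Tlr4 to a log2 fold change of 0.020 and Ripk2 to 0.32. Nod1 ran from -0.047 without Control replicate 1 to 0.29 without Control replicate 2. Over all genes, 2400 were called higher and 2545 lower; DESeq2 called 1581 higher, and the positional correction gave 2009 higher and 1944 lower. With 1 library left out, the number higher ran from 1502 to 2305 and the number lower from 1623 to 2538, the lowest being without PM2.5 replicate 2 in both. The cause was not tested. With the replicate block 3 of the 9 genes were higher and 1 lower, and 2797 genes were called higher and 2976 lower in all. The labels give same-numbered replicates no shared source, and the replicate differences of the 2 groups correlated at 0.164 across 12478 genes, which does not establish a pairing. Depth limits Nod1, Pycard and Nlrp3, whose counts were at most 134 in any library; Pycard was not kept by the stricter filter.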
